A study of Sorghum bicolor with 14 samples.

Results

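The tonoplast sugar transporters are a small gene family of sorghum with 3 members, TST1 (Sobic.001G312900), TST2 (Sobic.004G099300) and TST3 (Sobic.010G276100). They were chosen by identifier, by a rule that uses no measured value but was written with earlier results of these data known, and all 3 were found among the 33415 locus names of the series. The transporter names are those that sorghum genetics uses for these identifiers, since the files hold the identifiers alone. TST1 lies on chromosome 1 from 59989926 to 59995061, TST2 on chromosome 4 from 8829373 to 8834611 and TST3 on chromosome 10 from 60923800 to 60926597. The file gives each of them the same coordinates in both of its tables and joins none of them with a neighbouring gene. No source used here names the genome build.

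RNA was sequenced from the middle internode of the stem of ICSV12012, a sweet sorghum (Sorghum bicolor) variety, in 14 libraries that fall into 7 groups of 2. Plants of 4 groups were sown in a fertilised soil bed and sampled at floral initiation, at booting, at the milky stage of the grain and at soft dough. Plants of the other 3 groups grew singly in pots, had no water from the flag leaf stage on and were harvested at booting, when the soil moisture read about 13% (D1), 7% (D2) or 2% (D3). All 7 groups are of 1 variety, and none of the pot groups was kept watered, so that pot and water shortage cannot be told apart against the soil bed. The deposited values are FPKM, which scale fragments to transcript length and library size, with 1 value per locus and group. No value per library was given, so no difference described here has a replicate check, a standard deviation or a p-value, and the depth is unknown.

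The central vacuole of a storage parenchyma cell takes up most of the cell and is where a sweet sorghum stem keeps its sucrose. Tonoplast sugar transporters sit in the vacuolar membrane and exchange protons from the vacuole for sugar from the cytosol, so they load sugar against its gradient with energy from the vacuolar proton pumps. In Arabidopsis relatives of the family move glucose and sucrose into the vacuole, and in sugar beet a member loads the taproot with sucrose.

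TST1 and TST2 were among the abundant transcripts of the internode, and TST3 was hardly seen. TST1 stood at 237 FPKM at floral initiation, 149 at booting, 123 at the milky stage and 177 at soft dough, and at 220 in D1, 176 in D2 and 201 in D3. Its 7 values thus lay within 1.93 times of each other. TST2 stood at 181 FPKM at floral initiation, 39.2 at booting, 159 at the milky stage and 209 at soft dough, and at 138 in D1, 90.3 in D2 and 98.5 in D3. Booting was its lowest group and soft dough its highest, 5.34 times apart. TST3 was listed at 0 in 5 of the 7 groups, with 0.0216 FPKM at soft dough and 0.0157 in D2. Because it stayed below 1 FPKM throughout, TST3 did not enter the comparisons below, which ask for 1 FPKM in some group and so hold 2 of the 3 members.

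**Figure D1:**
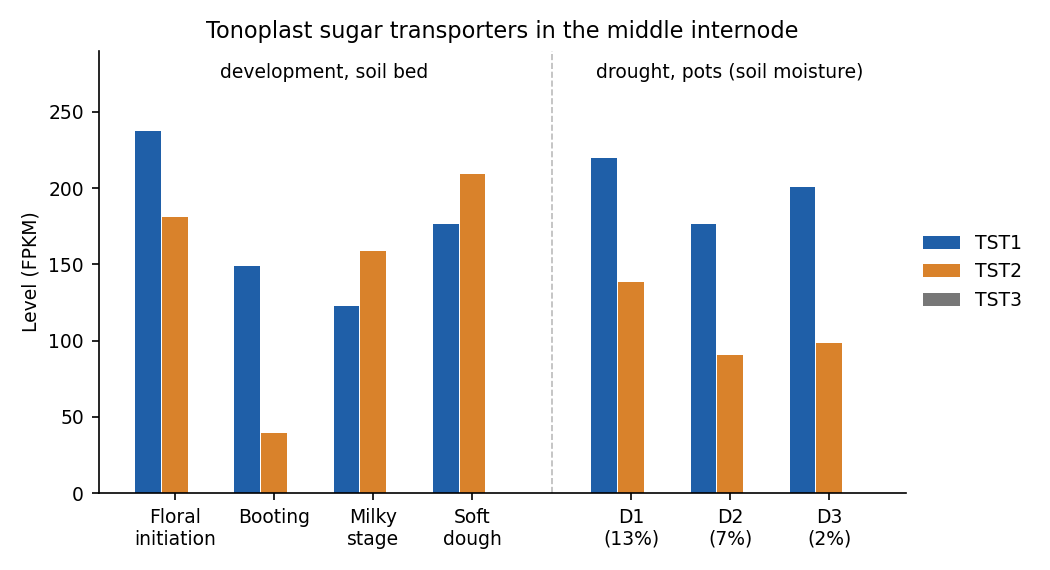
FPKM (linear axis) of TST1, TST2 and TST3 in each group, 1 deposited value per bar and hence no error bar, with the soil bed stages to the left of the dashed line and the pots at their soil moisture to the right. TST2 has its lowest bar at booting (39.2 FPKM), TST1 stays between 123 and 237 FPKM, and TST3 is too low to be visible.

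Among the loci at 1 FPKM or more in a group, TST1 ranked 379 of 16779 from the top at floral initiation and 1166 of 15745 at the milky stage, its best and worst places in the stages. TST2 ranked 526 at floral initiation, 892 at the milky stage and 574 of 16019 at soft dough. At booting TST2 was at rank 3496 of 16523, with 21.2% of these loci above it. The median of such loci at booting was 11.2 FPKM, so even there TST2 lay above the middle of the internode transcripts. In the drought groups 3.34% (D1), 4.23% (D2) and 4.48% (D3) of loci stood above TST1, and 5.75%, 9.0% and 9.84% above TST2.

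Which of the 2 expressed members was the higher depended on the stage. TST1 was 1.31 times TST2 at floral initiation and 3.79 times TST2 at booting. At the milky stage TST2 was 1.29 times TST1, and at soft dough 1.18 times. In the drought groups TST1 was again the higher, by 1.59 times in D1, 1.95 in D2 and 2.04 in D3. TST2 therefore made up 43.3% of the summed FPKM of the family at floral initiation, 20.9% at booting, 56.4% at the milky stage and 54.2% at soft dough, and 38.6%, 33.9% and 32.9% in D1, D2 and D3. Since FPKM are per length, levels may be set beside each other within a group. The scalings tried keep the order of loci within a group, so they cannot check which of the pair was the higher. The sum of the family went from 419 FPKM at floral initiation to 188 at booting, 282 at the milky stage and 386 at soft dough, and was 358, 267 and 299 in D1, D2 and D3.

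**Figure D2:**
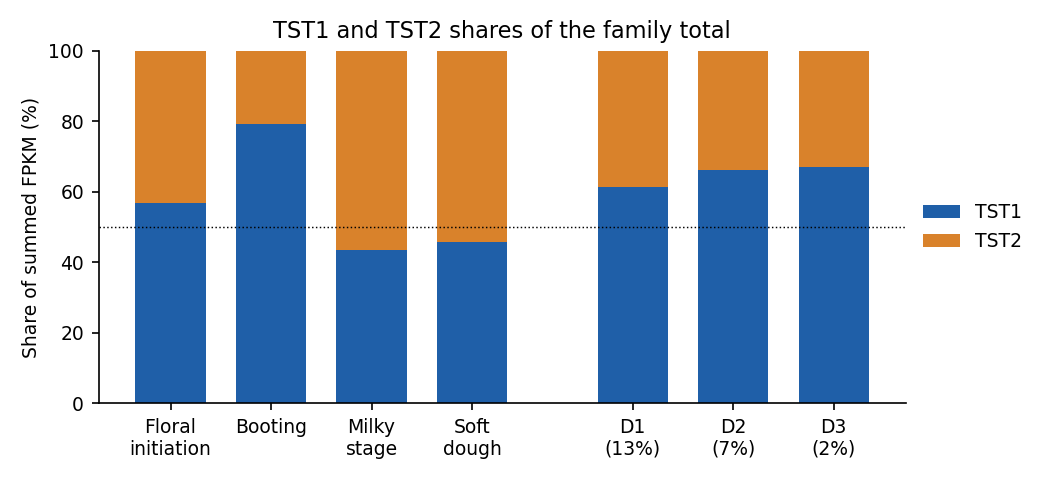
Share of TST1 and TST2 in the summed FPKM of the family (percent, from 0 to 100) in each group, with 50% dotted. TST2 makes up more than TST1 at the milky stage (56.4%) and soft dough (54.2%) and has its lowest share at booting (20.9%).

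Changes below are on the log2(FPKM + 1) scale, as 1 group minus another, and loci with a difference of at least 1, 2-fold with the offset, are counted. From floral initiation, when the shoot tip turns to making a head, to booting, when the sheath of the flag leaf swells around the head, TST2 went from 181 to 39.2 FPKM, a difference of -2.18. Only 2.48% of the 18367 loci compared had a lower change. TST1 went from 237 to 149 FPKM (-0.67), short of 2-fold. So 1 of the 2 members compared was counted, in a comparison in which 29.3% of all loci were, and 13.5% as lower at booting. Quantile normalization, which forces all groups to 1 distribution, took TST1 past 2-fold as well (-1.30).

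From booting to the milky stage, when sugars begin to be drawn into the grain, TST2 was higher and TST1 a little lower. TST2 stood at 159 FPKM against 39.2 (1.99), and 98.3% of loci had a lower change. TST1 stood at 123 FPKM against 149 (-0.27), and 73.2% of loci had a change at least that size. The FPKM of all named loci summed to 653771 at floral initiation, 900386 at booting and 731986 at the milky stage. Small differences in both steps may follow these totals, which was not tested. From booting to the milky stage, median-of-ratios scaling gave -0.21 for TST1 and 2.05 for TST2. Quantile normalization gave -0.18 and 1.97. Here 24.9% of loci differed at least 2-fold, 9.27% higher at the milky stage. At soft dough both members were above the milky stage, TST1 at 177 against 123 FPKM (0.52) and TST2 at 209 against 159 (0.40). Neither was counted, in a step where 17.4% of loci were.

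Soft dough against floral initiation left TST2 close to where it had started, 209 against 181 FPKM (0.21), with the sign turned by quantile normalization (-0.11). TST1 was 1.34 times lower at soft dough (-0.42). None of these reached 2-fold, against 30.5% of all loci. Against booting, TST2 was 5.34 times higher at soft dough (2.39), and 99.4% of loci had a lower change, while TST1 was 1.19 times higher (0.25). In that comparison 21.0% of loci were counted, and 8.18% as higher at soft dough. The comparisons of booting with the other stages share its value, so that a single low value enters each of them.

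TST1 was among the less variable transcripts of its level. Its range over the stages was 0.95 on the log2(FPKM + 1) scale, against a median range of 1.18 over all loci, and 34.7% of loci had a smaller range. Among the 1354 loci with a mean of at least 100 FPKM over the stages, whose median range was 1.62, 16.7% had a smaller one. A range of at least 1 was found for 61.7% of loci, and quantile normalization put TST1 among them (1.48). TST2 had a range of 2.39, and 12.8% of loci had one at least as wide.

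The profile of TST2, low at booting and high before and after, was uncommon. The gap counted here was shaped on this profile of TST2, so the counts describe it and do not test it. Its value at booting lay 1.99 below its next lowest stage on the log2(FPKM + 1) scale. Booting was the lowest stage for 4026 loci (21.9%), and by at least 1 for 211 of the 18367 (1.15%). A gap at least as wide as that of TST2 was found for 25 loci, or 0.136%, TST2 included. Of the 2125 loci that reached 100 FPKM in some stage, 6 had such a gap. The other 5, named here after their values were seen, are Sobic.001G141300, which is listed at 0 at booting, Sobic.004G293500, Sobic.007G051800, Sobic.010G076700 and Sobic.002G384400. The counts of loci moved with the offset, with 66 loci past a gap of 1 where the offset was 5 and 464 where it was 0.1, whereas the gap of TST2 itself was between 1.89 and 2.05 in all settings tried.

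**Figure D3:**
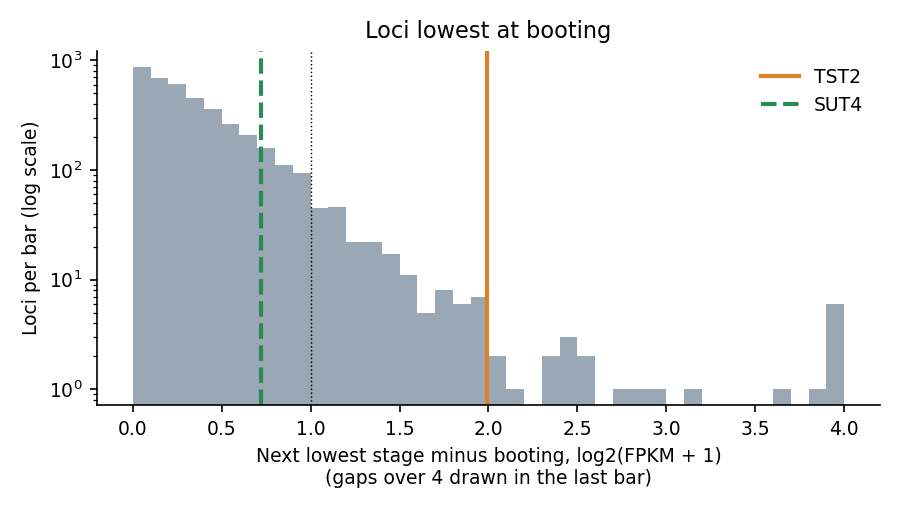
Histogram of the gap between booting and the next lowest stage, in log2(FPKM + 1), for the 4026 loci lowest at booting; the count axis is logarithmic and the dotted line marks a gap of 1. TST2 (solid line, 1.99) lies in the sparse right tail and the sucrose transporter SUT4 (dashed line) at 0.72.

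Among the stages, a marker of green tissue moved the other way at booting. The Rubisco small subunit locus Sobic.005G042000, an enzyme part of carbon fixation in leaves, was at 90.0 FPKM at booting against 20.6 at floral initiation, 16.4 at the milky stage and 31.7 at soft dough. In the pots it was at 107 in D1, 168 in D2 and 30.2 in D3. It was thus above its booting value in D1 and D2, as TST2 was, and below it in D3, where TST2 was above. The other marker of the pair, the C4 phosphoenolpyruvate carboxylase locus Sobic.010G160700, stayed between 0.00945 and 0.110 FPKM in the 7 groups, so that the summed level of the pair lay between 16.4 and 90.2 in the stages. The names of both were recalled and not checked against an annotation. The part of green tissue in the TST2 values was not tested, and in bulk tissue fewer cells of a type and less RNA per cell cannot be told apart.

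As the soil dried, both expressed members had their highest drought value in D1 and their lowest in D2. From D1 to D2 TST2 went from 138 to 90.3 FPKM (-0.61), and 7.73% of the 17229 loci compared had a lower change. TST1 went from 220 to 176 FPKM (-0.32), with 17.2% of loci lower. Neither reached 2-fold, in a step in which 6.80% of loci did. From D2 to D3 the differences were small, TST1 at 201 against 176 FPKM (0.19) and TST2 at 98.5 against 90.3 (0.12), and both signs turned with quantile normalization (-0.042 and -0.097). Here 9.77% of loci were counted, and neither member.

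Over the whole drying range, D3 against D1, TST2 was 1.40 times lower (-0.49) and TST1 1.10 times lower (-0.13), and neither scaling turned these signs. No member was among the 11.3% of loci that differed at least 2-fold. The ranges over the drought groups were 0.32 for TST1 and 0.61 for TST2, beside a median of 0.45 over all loci, and 17.4% of loci had a range of at least 1. Of loci with a mean of at least 100 FPKM, 27.9% varied less than TST1 and 63.0% less than TST2.

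**Figure D4:**
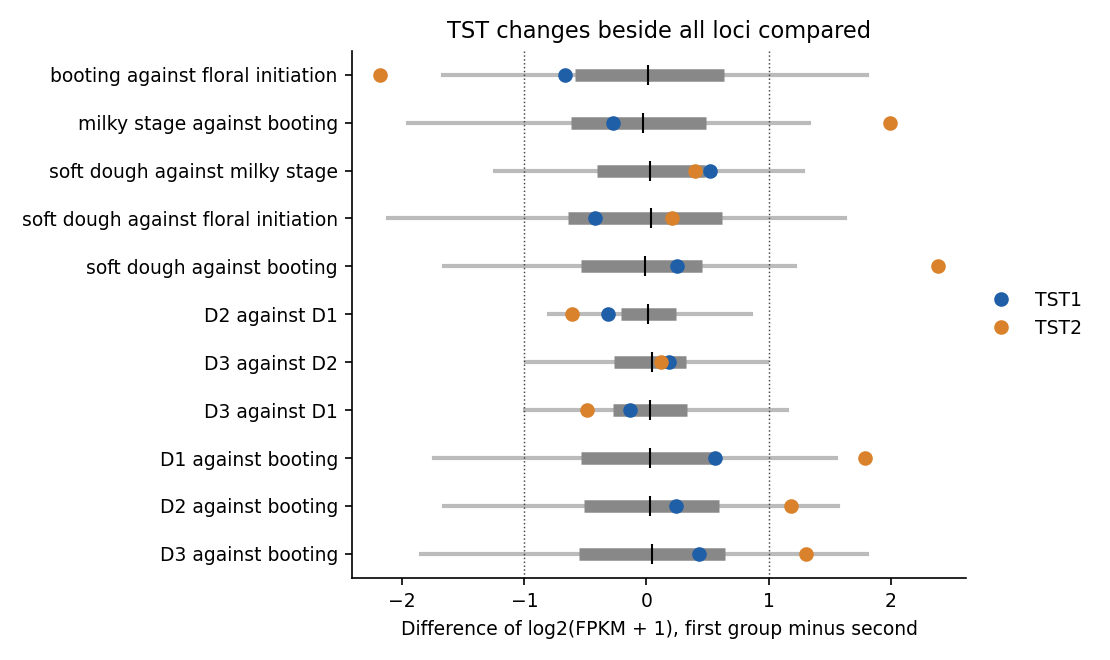
Differences of log2(FPKM + 1), first group minus second, of TST1 and TST2 (dots) beside all loci compared, whose middle 50% is the thick bar, 5th to 95th percentile the thin line and median the tick; dotted lines mark 2-fold. TST2 lies outside the thin line where booting is compared with another stage and with D1, and TST1 stays within 2-fold throughout.

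The pots were harvested at booting, so the watered soil bed plants of that stage are their nearest counterpart. TST2 was higher in each pot group, at 138 FPKM in D1 (1.79), 90.3 in D2 (1.18) and 98.5 in D3 (1.31), against 39.2. The 3 comparisons share the booting value, so they are not independent of each other, and they run across tables that were quantified separately. TST1 was at 220, 176 and 201 FPKM against 149, differences of 0.56, 0.24 and 0.43. TST2 was thus counted in each comparison and TST1 in none, where 26.1% (D1), 26.1% (D2) and 29.8% (D3) of 18492 loci were counted, and 12.8%, 13.4% and 15.5% as higher in the pots. In D1 8.07% of loci had a change at least the size of that of TST2, and in D2 and D3 19.7% and 19.9%. No drought value of TST2 reached its level at floral initiation, at the milky stage or at soft dough.

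Genes that carry, split or make sucrose give the setting of these values. They were taken as 15 loci by recalled identifier, none checked against an annotation, and 12 of them reached 1 FPKM in some group. Sucrose transporters (SUT) carry sucrose with protons across membranes. SUT1, known from cereals for loading and retrieving sucrose at the plasma membrane, was at 110 FPKM at floral initiation, 119 at booting, 59.5 at the milky stage and 31.8 at soft dough. SUT2, whose rice and maize counterparts let sucrose out of the vacuole, was at 188, 91.3, 70.2 and 95.04 FPKM in the same order. SUT4 was at 35.6, 13.6, 41.2 and 23.1 FPKM, lowest at booting as TST2 was. SUT3 and SUT6 were listed at 0 in all 7 groups, and SUT5 did not pass 0.0185 FPKM.

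At booting against floral initiation 2 of the 3 SUT loci compared were at least 2-fold lower, SUT2 (-1.03) and SUT4 (-1.32), where 13.5% of all loci were. The median of the 3 was -1.03, beside 0.01 for all loci. From booting to the milky stage SUT4 was 3.02 times higher (1.53), beside 4.05 times for TST2, and SUT1 and SUT2 were lower by 2.01 and 1.30 times. The median of the 3 was -0.38, beside -0.03 for all loci. At soft dough SUT4 was 1.78 times lower than at the milky stage (-0.81) while TST2 was 1.32 times higher, so the pair went opposite ways in that step.

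In the pots SUT2 was at 264 FPKM in D1, 246 in D2 and 281 in D3, above its 91.3 at booting by 1.52, 1.42 and 1.61 on the log2(FPKM + 1) scale, and above TST1 and TST2 in each of these groups. SUT4 was at 21.7, 26.3 and 42.1 FPKM, and its change from D1 to D3 was 0.92, whereas that of TST2 was -0.49. SUT1 was at 49.4, 40.9 and 57.5 FPKM, but in the drought table its locus runs from 75789008 to 75923262 on chromosome 1, and in the development table from 75891907 to 75897861, so its values across the tables do not describe the same stretch. None of the 3 differed at least 2-fold between any pair of drought groups. Few loci of any kind did, 6.80% for D2 against D1, 9.77% for D3 against D2 and 11.3% for D3 against D1.

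Vacuolar invertase splits the sucrose that the tonoplast carriers bring in. The locus VIN1 (Sobic.004G004800) was low in every group, at 2.29 FPKM at floral initiation, 1.62 at booting, 1.34 at the milky stage and 0.389 at soft dough. In the pots it was at 0.318 in D1, 0.275 in D2 and 3.08 in D3. Its log2(FPKM + 1) value was thus higher in D3 than in D2 by 1.68, or by 0.61 with an offset of 5, at levels far below those of TST1 and TST2.

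Sucrose synthases, which split sucrose in the cytosol, and sucrose phosphate synthases, which make it, had other profiles. Sobic.010G072300, the sucrose synthase locus with the highest values, was at 1025 FPKM at floral initiation, 897 at booting, 191 at the milky stage and 637 at soft dough, and so was lowest at the milky stage, where TST2 was 4.05 times above booting. Sobic.001G344500 was at 359, 400, 165 and 157 FPKM in that order and at 38.5, 89.7 and 23.5 in D1, D2 and D3. The third, Sobic.001G378300, was between 7.91 and 16.1 FPKM in the stages and at 65.7, 102 and 118 in the pots. At the milky stage against booting 2 of the 3 were at least 2-fold lower, where 15.7% of all loci were, and their median was -1.27, beside -0.03 for all loci. With quantile normalization Sobic.001G344500 no longer was (-0.99).

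Of the 5 sucrose phosphate synthase loci, none differed at least 2-fold between booting and either floral initiation or the milky stage, with medians of -0.12 and 0.70. Of all loci 29.3% and 24.9% did so, with medians of 0.01 and -0.03. With median-of-ratios scaling Sobic.009G233200 passed 2-fold at the milky stage (1.03, in place of 0.97), and with an offset of 0.1 Sobic.005G089600 did in the other direction (-1.24). At soft dough 2 of the 5 were at least 2-fold above floral initiation, Sobic.003G403300 at 15.9 against 4.61 FPKM (1.59) and Sobic.004G068400 at 46.1 against 17.9 (1.31). The median of the 5 was 0.91, beside 0.04 for all loci, in a comparison in which 13.7% of all loci were counted as higher. Sobic.005G089600 (0.91) passed 2-fold as well with an offset of 0.1 (1.68) and with quantile normalization (1.08). In D1 3 of the 5 were at least 2-fold above booting, where 12.8% of all loci were, among them Sobic.009G233200 at 69.4 against 19.0 FPKM (1.81), beside 1.79 for TST2. With an offset of 5 the count was 2, without Sobic.005G089600 (0.91). Between the drought groups none of the 5 was counted, where 6.80% (D2 against D1), 9.77% (D3 against D2) and 11.3% (D3 against D1) of all loci were.

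**Figure D5:**
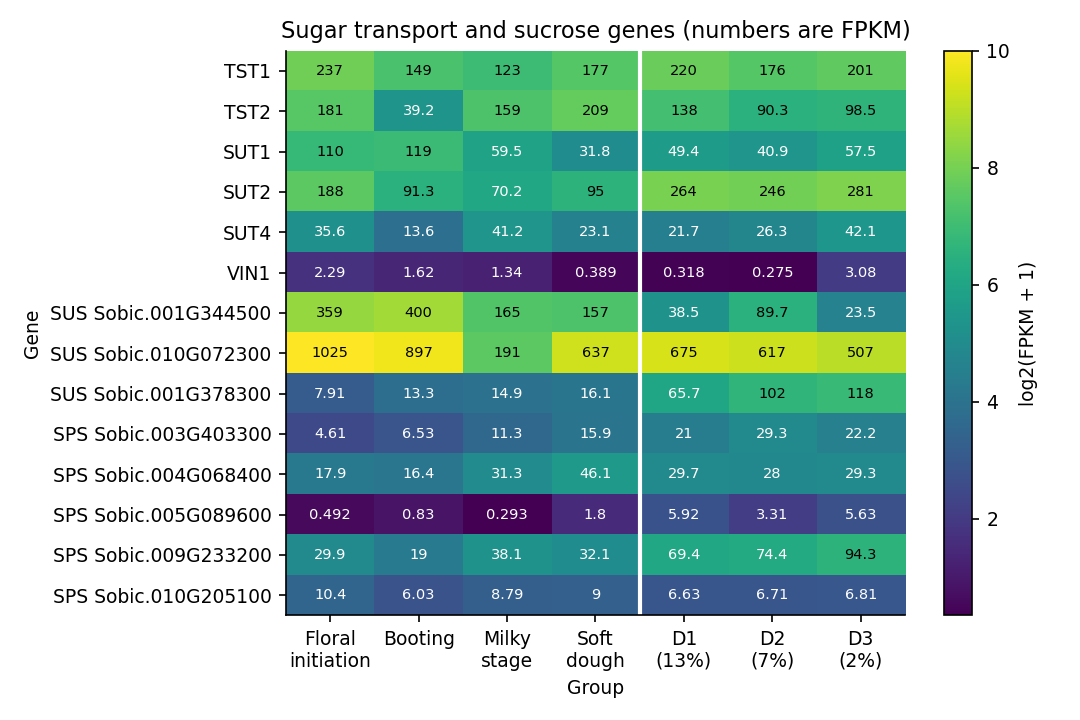
Levels of TST1, TST2 and the 12 related loci that reached 1 FPKM (SUS, sucrose synthase; SPS, sucrose phosphate synthase) in each group; the colour is log2(FPKM + 1) and each cell prints its FPKM. TST2 and SUT4 have their lowest stage value at booting, and the sucrose synthase Sobic.010G072300 has its lowest at the milky stage (191 FPKM).

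TST1 and TST2 did not share a profile. Over the 7 groups their log2(FPKM + 1) values had a Pearson's r of 0.28 and a Spearman's rho of 0.36, which describe 7 group values from separately quantified tables. The loci most like each were ranked by Pearson's r over the same 7 values, among single-gene loci that were listed at 0 nowhere and ranged over at least 1. For TST2 they were Sobic.003G101850 (r 0.993), Sobic.001G205200 (0.978) and Sobic.010G236200 (0.971). Sobic.003G101850 was at 10.1, 4.04, 8.56 and 10.1 FPKM in the stages and at 7.997, 6.48 and 7.08 in the pots, a much lower level than that of TST2. Sobic.001G205200 was the most abundant of these, at 42.8, 20.9, 49.7 and 52.0 FPKM in the stages. Of 13023 loci ranked, 25 (0.192%) had an r of at least 0.9 with TST2.

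For TST1 the nearest loci were Sobic.010G199300 (r 0.992), Sobic.001G477400 (0.986) and Sobic.001G291400 (0.984), and 137 of 13024 loci (1.05%) had an r of at least 0.9. TST1 itself ranged over 0.95, short of the 1 asked of the ranked loci, so each of them varied more than TST1 did. The 3 nearest were low, with Sobic.001G291400 the highest of them at 13.1 FPKM at floral initiation and 4.98 at the milky stage. The files pair none of these loci with a product, so their function is not given here. Over 7 values Spearman's rho takes few steps near its top. It was 0.964 for each of the 6 loci with its member, and at least 3 other loci had a higher rho with TST1.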

How the data were processed

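The authors deposited FPKM, per the file headers as 1 value per locus and group, in a development table (32752 named loci) and a drought table (32705). No source used here says how a group's 2 libraries gave 1 value. Per the labels' protocols the libraries came from total RNA with a stranded kit. The submitters' processing notes name HISAT2 2.0.5, Bowtie2 2.2.9, cutadapt 1.8.1 and Cuffdiff. The sources used here name neither build nor annotation, and the depth is unknown. Each of the 7 value columns belongs to a group of the series and 0 to other samples.

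Tables were read with Python 3.11.15 and pandas 2.3.3. Loci entered a comparison if named and at 1 FPKM or more in some group of the table, or, across tables, if named in both and at 1 FPKM in any of the 7 groups. Changes are differences of log2(FPKM + 1), with no test. An exact 0 can be a failed estimate, so such values are said to be listed at 0. Members, lists and thresholds were chosen with earlier results of these data known. Named loci are the members, the related genes taken by identifier, and per member the 3 nearest by Pearson's r. Lists by product name (proton pumps, SWEET carriers, aquaporins, other sugar carriers) and the markers by product could not be formed, because the reference table, of the assembly NCBIv3, matched 0 of the member identifiers. Alternatives were offsets of 0.1 and 5, no minimum, a minimum of 5 FPKM, median-of-ratios scaling and quantile normalization. Subtraction of the median change was added after the data were seen. The gap at booting, the level cut of 100 FPKM, the ranks and the neighbouring loci were not planned beforehand either. Counting, scaling and likeness steps were tested on copies of the deposited values with known changes planted. Such copies hold no noise between libraries, so only the working of the steps was checked.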

Additional observations from a re-analysis of the deposited data

How the results depend on the processing

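No paired analysis was possible because each group has a single deposited value, and leaving out each replicate was not run for the same reason. The 22 changes of TST1 and TST2 were recomputed to 154 values, of which 150 kept their direction and their side of 2-fold. Having no minimum or a minimum of 5 FPKM only selects loci and leaves a member's change as it was. That part of the 150 was thus fixed beforehand, and the count overstates how much was checked. The exceptions all came with quantile normalization, where TST1 passed 2-fold at booting against floral initiation (-1.30), TST2 turned sign at soft dough against floral initiation (-0.11), and both turned sign at D3 against D2 (-0.042 for TST1 and -0.097 for TST2). The range of TST1 over the stages became 1.48 under that setting. Of the 3 loci nearest to TST1, 1 stayed with quantile normalization and 0 with Spearman's rho. That rho was 0.964 for each of them and higher for at least 3 other loci, in steps that are coarse over 7 values. The cause was not tested. Over all loci, the median change shifted by over 0.1 under a scaling at the milky stage against booting alone, from -0.03 to 0.07 with quantile normalization. Counts of all loci past 2-fold moved by over 1.5 times with an offset of 5: in the order of the plot of changes, 5385 to 3064, 4580 to 2319, 3198 to 1581, 5595 to 3134, 3856 to 1828, 1172 to 445, 1683 to 720, 1943 to 884, 4832 to 2562, 4825 to 2536 and 5515 to 3073. At an offset of 0.1 D2 against D1 had 1909 and D3 against D2 2571, and 83 loci had a gap at booting at least that of TST2, or 11 at an offset of 5, in place of 25.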

Other observations

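The neighbours of the members on the chromosomes had the following levels. On chromosome 4 the locus before TST2, Sobic.004G099200, ends 495 bases from it and was listed at 0 in 6 of the 7 groups, with 0.00301 FPKM at the milky stage. The next named locus after TST2, Sobic.004G099400, was at 8.31 FPKM at floral initiation and 0.959 at booting, and then stayed low, at 0.478 at the milky stage and 0.594 at soft dough. The locus after that, Sobic.004G099500, was highest at booting (834 FPKM), where TST2 was lowest. Beside TST1, Sobic.001G312801 was at 43.2 FPKM at floral initiation, 28.3 at booting, 10.04 at the milky stage and 15.5 at soft dough, so it had the same order of stages as TST1 apart from soft dough. Sobic.010G276200, which starts 829 bases after TST3, was listed at 0 in all 7 groups, whereas Sobic.010G276000, which ends 929 bases before it, was at 1.12 FPKM at floral initiation and 0.137 at the milky stage.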
